A study of Mus musculus with 2 samples.

Results

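The gene-dense bins of proximal mouse chromosome 1 are the 100 kb windows between 3 and 90.75 Mb that hold the midpoints of 3 or more protein-coding genes of the GENCODE M21 annotation of GRCm38. They numbered 44 of 877 bins and held 174 of the 512 gene midpoints in this stretch, whereas 276 bins held 1 or 2 midpoints and 557 bins held none. The rule uses the annotation alone and no contact, but it was chosen with earlier results of these data known. Of the 44 bins, 24 held 3 midpoints, 8 held 4, 5 held 5, 4 held 6 and 3 held 7, and just below the limit 62 bins held 2.

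Hi-C was performed with mouse embryonic stem (ES) cells, and each group, wild-type and *Lin28a* knockout, is a single library. Both were kept in LIF/2i medium on gelatin with embryonic fibroblast feeders, and whether feeder cells were removed before cross-linking is not stated. LIN28A is an RNA-binding protein which the study follows in the nucleolus, and the study had *Lin28* knockout ES cells from more than 1 source, among them clones made with Cas9 and a guide to the second exon and cells taken from knockout mice. Its culture methods give E14 as the ES line used unless V6.5 is named. The labels name neither line for the Hi-C libraries, and the source and number of clones of the knockout are not stated. Hi-C ligates DNA ends that lie close in the cross-linked nucleus, so each sequenced pair records 1 contact between 2 positions, and it says nothing on the level of *Lin28a* or of any other transcript. The labels mention 2 replicates per group, but each list is a single set with 2 sequencing runs that the labels do not match to replicates. No test between the groups was thus possible, and every interval below (95%) covers counting error only.

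Mammalian genes are unevenly spread. Gene-rich stretches are generally high in G and C, rich in CpG islands, early replicating and transcribed, and they tend to contact each other over long distances in what is called the A compartment. Gene-poor stretches, often bound to the lamina at the nuclear edge, form the B compartment. Gene-dense, active sequence also tends to be found at the borders of topological domains, the neighbourhoods within which contacts are frequent.

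The 44 bins stood at the upper end in sequence. Their GC content had a median of 44.3% (lowest 39.9%, highest 54.1%), against 41.8% in bins with 1 or 2 midpoints and 39.4% in bins with none. They held a median of 10.6 CpG per kb, against 8.58 and 6.16. The bin at 75.4 Mb, with *Speg*, *Gmppa*, *Asic4*, *Chpf*, *Obsl1* and *Tmem198*, was highest in both, with 54.1% GC and 20.9 CpG per kb. GATC, the site at which the fragment numbers of the pairs change, was about equally frequent, at a median of 2.44 per kb in gene-dense bins and 2.52 per kb in bins with no midpoint.

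At the scale of single promoters the CpG difference was not seen within chromosome 1. RefSeq promoters (GRCm38.p6, 250 bases before to 50 bases after the start, 1 per gene) were matched by symbol for 131 of the 173 gene names. They held a median of 15 CpG, and 36.6% of them held 20 or more, against a median of 16 CpG and 42.4% for genes of bins with 1 or 2 midpoints and a median of 7 CpG and 26.8% over all 27025 genes of the table. The hexamer CCGCCC, read on both strands, was found in 42% of promoters in gene-dense bins, in 51.4% of those in bins with 1 or 2 midpoints and in 35.9% of all. Among gene-dense bins the promoters were mixed, with 32 of 131 (24.4%) holding under 5 CpG, against 18.1% for bins with 1 or 2 midpoints and 38.3% of all. The following 4 were chosen, after the values were known, to show that range beside the contacts of their bins. They are the 250 bases before the start on the gene's own strand, 5′ to 3′, with each CpG in capitals. *Bcs1l* (assembly factor of respiratory complex III) is at chr1:74588039-74588288 on the plus strand with 14 CpG. *Wnt6*, a secreted WNT ligand, is at chr1:74771642-74771891 on the plus strand with 28 CpG. *Cryge*, a lens crystallin gene, is at chr1:65051164-65051413 on the minus strand with 10 CpG. *Ugt1a1*, the enzyme that conjugates bilirubin in the liver, is at chr1:88211709-88211958 on the plus strand with 2 CpG.
Bcs1l: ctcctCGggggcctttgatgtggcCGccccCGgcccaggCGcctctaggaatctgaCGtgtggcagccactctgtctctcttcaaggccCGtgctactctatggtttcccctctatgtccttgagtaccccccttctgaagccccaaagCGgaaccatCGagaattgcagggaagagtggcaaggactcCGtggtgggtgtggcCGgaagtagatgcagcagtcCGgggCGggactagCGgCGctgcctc
Wnt6: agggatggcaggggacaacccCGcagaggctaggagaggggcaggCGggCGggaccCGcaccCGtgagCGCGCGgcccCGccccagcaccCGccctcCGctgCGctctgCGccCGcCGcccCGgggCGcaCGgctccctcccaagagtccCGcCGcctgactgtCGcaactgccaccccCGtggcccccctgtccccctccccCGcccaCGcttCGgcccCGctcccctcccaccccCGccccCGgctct
Cryge: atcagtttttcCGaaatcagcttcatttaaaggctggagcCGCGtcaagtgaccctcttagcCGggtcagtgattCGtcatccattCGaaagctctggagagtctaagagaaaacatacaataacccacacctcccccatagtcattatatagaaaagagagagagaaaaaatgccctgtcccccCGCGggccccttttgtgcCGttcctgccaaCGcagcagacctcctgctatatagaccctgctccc
Ugt1a1: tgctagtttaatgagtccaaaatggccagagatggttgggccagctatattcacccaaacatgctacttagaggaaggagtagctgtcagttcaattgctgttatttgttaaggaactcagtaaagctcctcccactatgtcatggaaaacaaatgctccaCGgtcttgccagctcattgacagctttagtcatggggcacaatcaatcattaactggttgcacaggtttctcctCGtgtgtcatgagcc

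Pairs with an end in the region numbered 5767991 (wild-type) and 4412861 (knockout), of which 2447102 and 1972539 entered the contact maps. Each gene-dense bin received 7150 to 20555 pair ends (median 12540) in wild-type and 5532 to 14854 (median 9851) in knockout, and none was left out for low coverage. The larger sequencing run carried 5262851 of the wild-type and 4224769 of the knockout pairs.

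One member stood apart in both libraries. The bin at 88.2 Mb (chr1:88200001-88300000, with *Ugt1a2*, *Ugt1a1*, *Dnajb3*, *Mroh2a* and *Hjurp*) had the highest number of ends of all 877 bins in both libraries, 20555 and 14854. Of its ends, 39.2% and 39.1% had a mate on another chromosome, and 22.6% and 22% of those mates lay on chromosome 4, where the median over all bins was 6.02% and 5.67%. Its pairs had a mapping quality under 30 at either end in 22.1% of wild-type cases, against a median of 11% over gene-dense bins. At its neighbour at 88.1 Mb this share was 22.9%. The excess of trans pairs with chromosome 4 at this window was seen in both libraries, and its cause was not tested. The main values are given with and without it where it moved them.

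Gene-dense bins contacted each other more often than their separation and coverage predicted. At 2 Mb or more, pairs between gene-dense bins were 1.44 times the expected number in wild-type (1.39 to 1.48; 3928 pairs over 848 pairs of bins) and 1.56 times in knockout (1.51 to 1.61; 3356 pairs). Here the expected number is the mean balanced contact at that separation times the coverage biases of both bins. Pairs between a gene-dense bin and a bin with no midpoint were below expectation, at 0.897 (0.890 to 0.904) and 0.870 (0.862 to 0.878). Pairs among bins with no midpoint were close to it, at 1.01 in both libraries. The size of these values depends on the balancing. With the expected number taken from separation alone, pairs between gene-dense bins were 1.79 (1.73 to 1.85) and 1.90 (1.83 to 1.96) times the expected number, and those of gene-dense with no-midpoint bins 0.971 and 0.935 times.

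The excess was small nearby and large far away. At 0.2 to 0.9 Mb it was 1.15 in wild-type and 1.20 in knockout, and at 1 to 9.9 Mb it was 1.08 and 1.10. It was 1.56 (1.48 to 1.63) and 1.81 (1.72 to 1.90) at 10 to 29.9 Mb. At 30 Mb or more it reached 1.71 (1.62 to 1.81) and 1.83 (1.71 to 1.95). Contacts with bins that hold no midpoint were lowest under 10 Mb, with 0.815 and 0.809 at the shortest separation and 0.817 and 0.784 at 1 to 9.9 Mb, and came close to expectation at the longest, with 0.982 and 0.980. Thus the contrast between both kinds of partner was present at every separation in both libraries. From separation alone it was also present at each, with 1.43 against 0.948 in wild-type at the shortest and 2.13 against 1.06 at the longest, but there contacts with no-midpoint bins were above expectation at 30 Mb or more in both libraries (1.06 and 1.05).

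**Figure D1:**
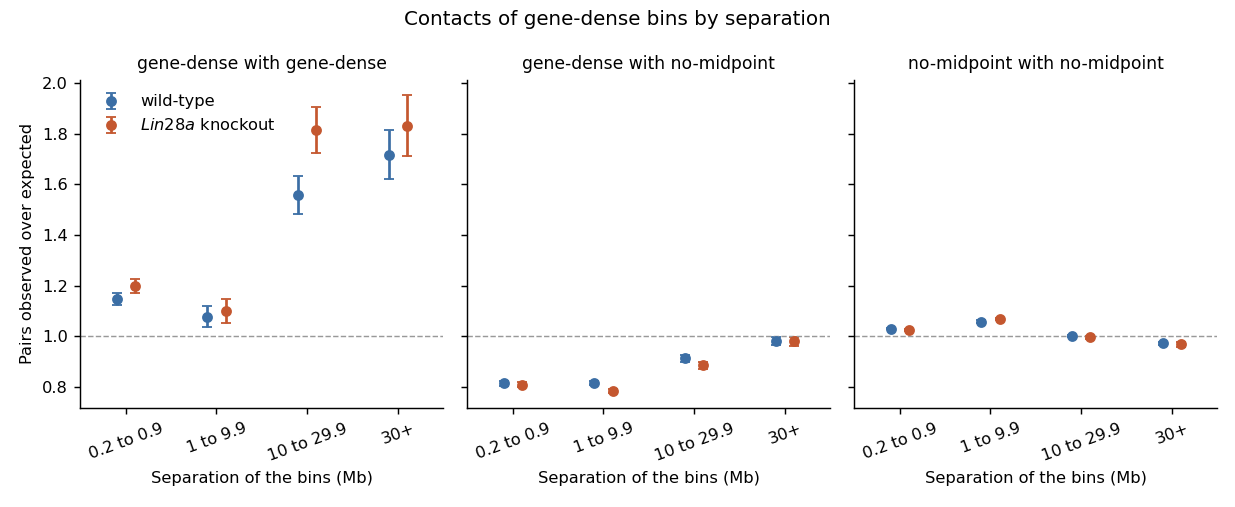
Pairs observed over expected (y axis) by separation of the bins in Mb (x axis) for 3 kinds of bin pairs; points are the wild-type (blue) and *Lin28a* knockout (orange) library and bars are exact Poisson 95% intervals. Gene-dense bins exceed 1 with each other at every separation, most at 10 Mb or more, and lie below 1 with bins that hold no gene midpoint.

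The knockout library had the higher value among gene-dense bins. The ratio of knockout over wild-type at 2 Mb or more was 1.08 (1.04 to 1.14). It was 1.16 (1.09 to 1.25) at 10 to 29.9 Mb, 1.07 (0.978 to 1.16) at 30 Mb or more, 1.02 (0.963 to 1.08) at 1 to 9.9 Mb and 1.04 (1.01 to 1.08) at 0.2 to 0.9 Mb. For gene-dense with no-midpoint bins the ratio was 0.970 (0.959 to 0.982). The difference among gene-dense bins is small and rests partly on 1 stretch: without the 10 members of 74.1 to 75.6 Mb the values were 1.30 and 1.35, a log2 ratio of 0.05 (-0.03 to 0.14), where all 44 gave 0.12 (0.05 to 0.18). Without the bin at 88.2 Mb the values were 1.46 and 1.58. By sequencing run, wild-type gave 1.44 in both runs, and knockout gave 1.57 in the larger run and 1.40 (1.16 to 1.66; 125 pairs) in the smaller run, so the smaller runs alone did not show the difference.

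Per bin, the same contrast is given as a preference, the log2 of observed over expected with gene-dense bins divided by that with no-midpoint bins at 2 Mb or more. It was above 0 in 40 of the 44 members in wild-type (background over all bins 47.9%) and in 41 in knockout (background 46%). Since each contact between 2 members counts for both, these values are not independent. The median preference of the members was 0.81 in wild-type and 1.00 in knockout, against 0.39 and 0.43 for bins with 1 or 2 midpoints and -0.31 and -0.36 for bins with none. The preference was higher in knockout in 37 of 44 members (background 47%). For most members this difference lay within counting error, as its interval was above 0 in 8 of 44 and below 0 in 0. No background was counted for that interval. With the 10 members of 74.1 to 75.6 Mb left out of both the partners and the count, the preference was higher in knockout in 24 of 34 (background 48.7%).

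The bin with the highest wild-type preference was that at 74.5 Mb (chr1:74500001-74600000). It holds *Cnot9*, a subunit of the CCR4-NOT complex that removes poly(A) tails, *Plcd4*, a phospholipase C, *Zfp142*, a zinc finger gene, and *Bcs1l*, whose promoter is printed above. Its preference was 1.44 (1.23 to 1.65) in wild-type and 1.45 (1.21 to 1.69) in knockout, which was no difference within counting error. The bin at 74.3 Mb, with *Slc11a1*, a metal transporter of macrophages, went from 1.14 (0.91 to 1.37) to 1.75 (1.51 to 1.99), the largest rise and the highest knockout value. Its neighbour at 74.2 Mb, with *Arpc2* of the actin-branching ARP2/3 complex, went from 1.01 (0.76 to 1.27) to 1.5 (1.24 to 1.76). The bin at 63.1 Mb, with the complex I gene *Ndufs1*, the translation elongation gene *Eef1b2* and *Gpr1*, went from 0.96 (0.77 to 1.14) to 1.44 (1.25 to 1.63).

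The interval of the preference was above 0 in 36 of 44 members in wild-type (background 36.1%) and in 37 in knockout (background 33.8%). Several members showed no such preference, or showed it in 1 library only. It was above 0 in knockout only at 63.7 Mb, with *Fastkd2* and *Mdh1b* (0.17, -0.09 to 0.42, and 0.55, 0.29 to 0.81), and at 44.1 Mb (0.18, -0.10 to 0.46, and 0.34, 0.05 to 0.63). The bin at 88.2 Mb was below 0 in both libraries, at -0.60 (-0.81 to -0.38) and -0.44 (-0.67 to -0.21), despite its 5 midpoints. With gene-dense bins alone this bin stood at 1.07 and 1.23 times expectation, so it stood higher still with no-midpoint bins. Its neighbour at 88.1 Mb holds 7 *Ugt1a* genes, which are alternative first exons joined to the same final exons, so that their midpoints lie together. It gave 0.60 (0.27 to 0.92) in wild-type and 0.21 (-0.16 to 0.59) in knockout, and both values rest on the fewest ends of any member. The bin at 53.3 Mb, with 6 midpoints that include the sphingolipid regulator *Ormdl1* and *Osgepl1*, gave -0.15 (-0.43 to 0.14) and 0.09 (-0.20 to 0.39). Bins at 82.7 Mb and 83.0 Mb, the latter with keratin-associated protein genes such as *Krtap28-10* and the thiamine transporter gene *Slc19a3*, had intervals that reach to both sides of 0 in both libraries. The *Khdc1* bin at 21.3 Mb gave 0.05 and 0.10. The bin of *Ptp4a1* at 30.9 Mb gave 0.10 and 0.08, also with intervals on both sides of 0. Some of these bins thus held tandem families and others did not. At 30.9 Mb the annotation enters *Ptp4a1* more than once, so its midpoints are not all of separately named genes.

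**Figure D2:**
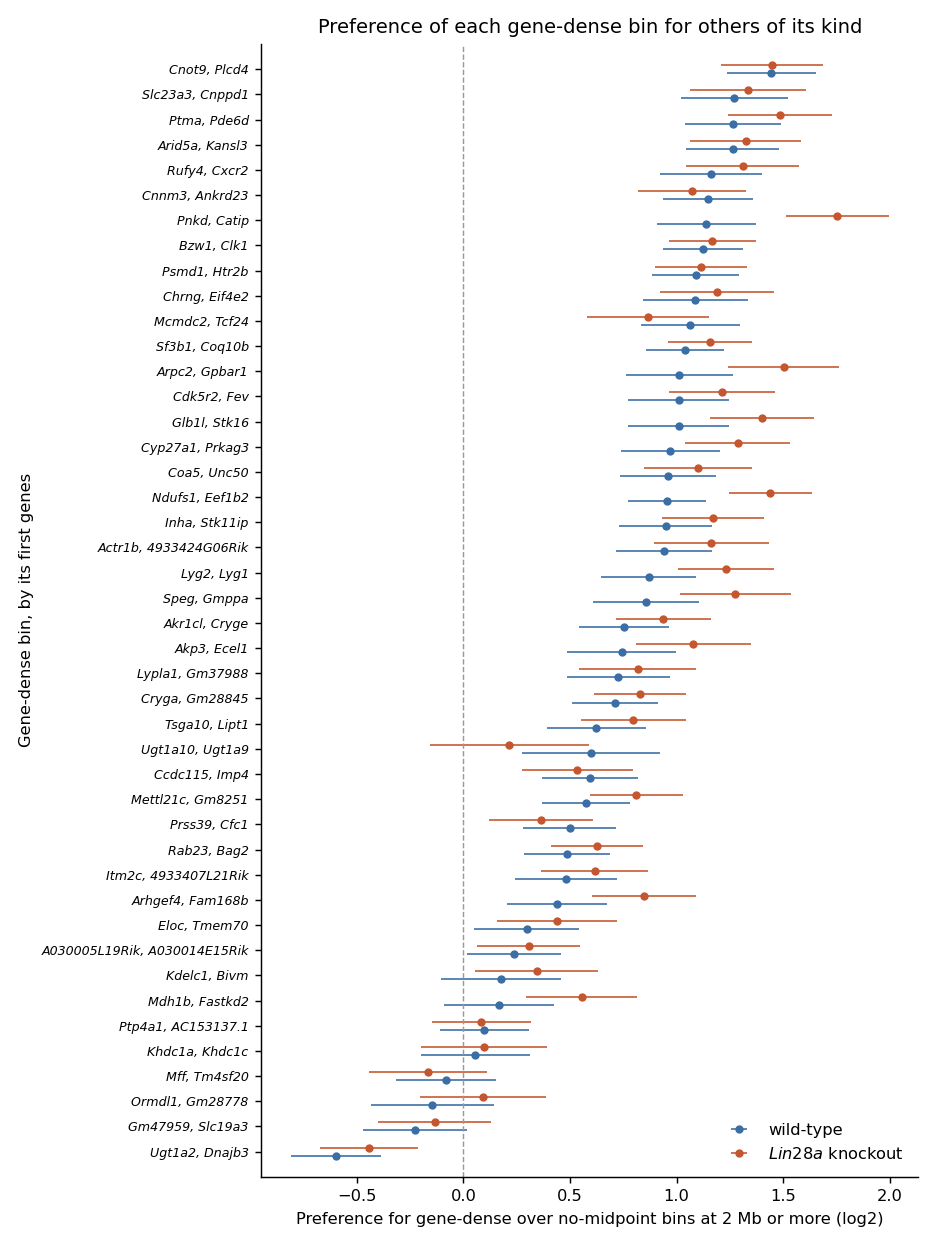
Preference of each of the 44 gene-dense bins (rows, named by their first genes, ordered by the wild-type value) for other gene-dense bins over no-midpoint bins at 2 Mb or more, in log2 (x axis), for wild-type (blue) and *Lin28a* knockout (orange); bars are 95% counting intervals. The bin of *Cnot9* is highest in wild-type at 1.44, the bin of *Ugt1a2* is lowest at -0.60, and 37 of 44 knockout points lie to the right of their wild-type point.

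The first eigenvector of the map, whose sign was set by gene count over all bins, placed nearly all members on the gene-rich side. It was above 0 at 41 of 44 members in both libraries, where the background was 45.2% of bins in wild-type and 44.1% in knockout. Gene count also defines the members, so the side they fall on follows in part from this rule, and only size and order are read. In SD units the members had a median of 1.47 in wild-type and 1.53 in knockout. The highest were the bin of *Cnot9* at 74.5 Mb in wild-type (2.06) and the bin of *Actr1b* and *Zap70* at 36.7 Mb in knockout (2.06). The bin at 88.2 Mb was again lowest, at -0.67 and -0.65.

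Members up to 1 Mb apart were joined into 16 blocks and their contacts with all other gene-dense bins at 2 Mb or more were summed. Of the 16 blocks, 13 had an interval above 1 in each library, and no background was counted for blocks. Both blocks nearest the centromere, each a single bin, had the highest values in wild-type. The bin at 9.9 Mb, with the meiotic gene *Mcmdc2*, gave 2.26 (1.93 to 2.63) and 2.04 (1.67 to 2.47), and that at 4.8 Mb, with the transcription elongation gene *Tcea1* and *Lypla1*, gave 2.21 (1.87 to 2.59) and 2.38 (1.96 to 2.85). Next came the bin at 55.0 Mb, which holds the splicing gene *Sf3b1*, *Coq10b* and the paired mitochondrial chaperonin genes *Hspd1* and *Hspe1*, at 1.88 and 2.04. The intervals of these 3 bins overlap, so their order is not set. The single bin at 53.3 Mb was lowest at 0.771 (0.629 to 0.935) and 0.877 (0.713 to 1.07), although it lies under 2 Mb from the bin of *Hspd1*. These block values hold no contrast with no-midpoint bins. The preference at 4.8 Mb was 0.73 in wild-type and 0.82 in knockout, below the member medians of 0.81 and 1.00. At 9.9 Mb it was 1.07 and 0.87.

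Between the libraries, the ratio of knockout over wild-type was above 1 in 12 of the 16 blocks, with an interval above 1 in 3 and below 1 in 0. Those 3 were the block of 74.1 to 75.6 Mb, which went from 1.67 (1.59 to 1.76) to 1.92 (1.83 to 2.02), that of 85.9 to 88.3 Mb, from 1.55 (1.46 to 1.64) to 1.78 (1.67 to 1.90) and without the bin at 88.2 Mb from 1.64 to 1.87, and that of 63.1 to 63.8 Mb, from 1.45 (1.31 to 1.59) to 1.75 (1.58 to 1.93). Contacts between these blocks count in each of them. No background was counted for blocks here either, so the counts of blocks are descriptive only. The block of 36.3 to 38.0 Mb, with 6 bins and 21 midpoints, had 1.40 and 1.41, a ratio of 1.01 (0.922 to 1.10).

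**Figure D3:**
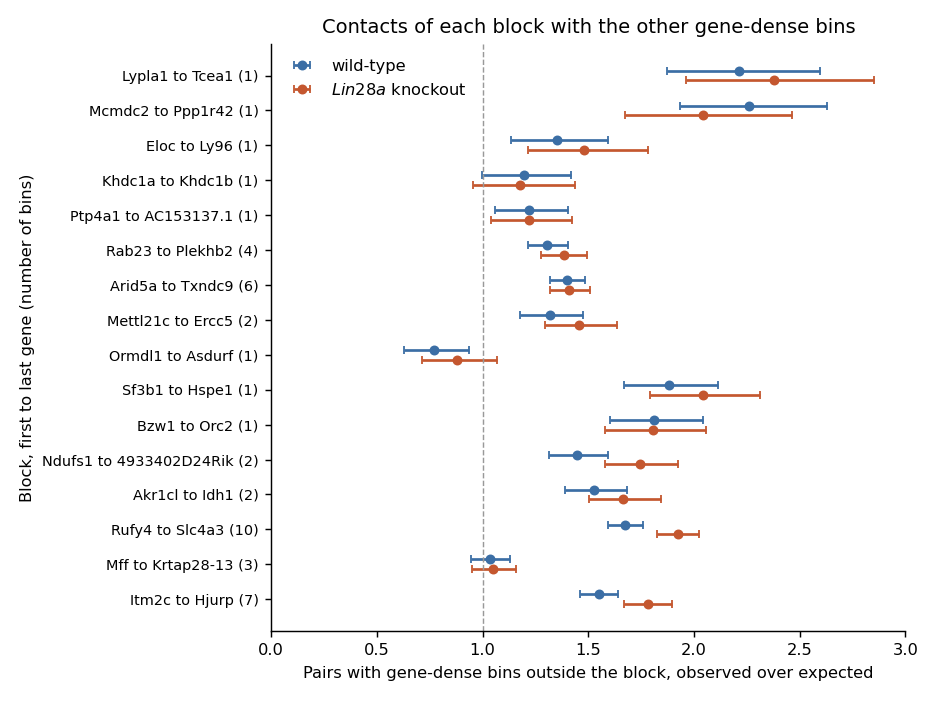
Pairs of each of 16 blocks with the gene-dense bins outside it at 2 Mb or more, observed over expected (x axis), in chromosomal order from top to bottom, with the number of bins in parentheses; bars are exact Poisson 95% intervals, wild-type in blue and *Lin28a* knockout in orange. The block from *Rufy4* to *Slc4a3* stands at 1.67 and 1.92, and the bin of *Ormdl1* at 0.771 and 0.877.

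The members formed 4 runs of 3 or more bins with gaps of at most 1 bin. The longest, 74.1 to 74.9 Mb (6 bins, from *Rufy4* to *Cryba2*), is followed after a short break by 75.1 to 75.6 Mb (4 bins, from *Slc23a3* to *Slc4a3*), and 36.3 to 36.8 Mb and 82.7 to 83.1 Mb held 3 bins each. The bin at 75.1 Mb has 7 midpoints, among them *Slc23a3*, *Cnppd1*, *Retreg2*, *Zfand2b* and the autophagy gene *Atg9a*, and 21556 of its bases are unknown in the assembly. That at 75.2 Mb also has 7, among them the alpha-tubulin gene *Tuba4a*, the kinase gene *Stk16* and the co-chaperone gene *Dnajb2*. With no gap allowed only 3 bins in a row at 74.1 to 74.4 Mb remain.

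Within a run, bins 0.2 Mb or more apart were not uniformly in excess. In the longest run the observed over expected was 1.00 (0.96 to 1.04) in wild-type and 1.06 in knockout, in the run at 75.1 Mb it was 1.17 and 1.26, and in that at 82.7 Mb it was 1.77 and 1.78. The run at 36.3 Mb, where *Cnnm3*, *Ankrd23*, *Ankrd39* and *Sema4c* share the central bin, went from 1.13 to 1.33, a ratio of 1.18 (1.07 to 1.30). Far contacts between runs were uneven. The run at 36.3 Mb exceeded expectation with the run at 74.1 Mb by 2.42 (1.99 to 2.92; 111 pairs) and 2.61 (78 pairs), and with that at 75.1 Mb by 2.20 (59 pairs) and 2.41 (44 pairs). With the *Krtap28* run it gave 0.803 (15 pairs) and 1.24 (14 pairs), too few to set apart from 1. The *Krtap28* run gave 1.20 (0.977 to 1.45) and 1.13 (0.902 to 1.41) with the run at 74.1 Mb, and 1.47 (1.17 to 1.82) and 1.68 (1.33 to 2.09) with that at 75.1 Mb, so it was in excess with 1 of the 3 other runs in both libraries. From separation alone, all pairs within runs together were 1.51 and 1.57 times the expected number, in place of 1.15 and 1.23.

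Trans contacts, those with other chromosomes, were slightly more common at members. They made up 29.4% (29.2 to 29.5) of ends in wild-type and 29.8% (29.6 to 29.9) in knockout, and 29.0% and 29.4% without the bin at 88.2 Mb. At bins with 1 or 2 midpoints the shares were 27.6% and 27.4%, and at bins with no midpoint 26% and 25.6%. The libraries differed in the chromosomes of their mates also outside the members. At all other bins, chromosome 6 took 6.75% of trans mates in wild-type and 8.40% in knockout, chromosome 8 took 5.41% and 7.24%, X took 2.82% and 2.59% and Y took 0.196% and 0.0393%. These 4 chromosomes were therefore left out in 1 alternative. The difference in trans share at members, 0.385 percentage points, turned to -0.348 there, so no direction is read from it. The lowest trans shares among members were at 82.7 Mb in wild-type (22.4%) and 83.0 Mb in knockout (21.9%), in the *Krtap28* run.

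The partners of members were themselves more often gene-dense. Gene-dense bins by the same rule are 2425 of 25313 bins of the other chromosomes (9.58%), a share not corrected for coverage. They took 15.0% (14.8 to 15.2) of the trans mates of members in wild-type and 15.7% (15.5 to 15.9) in knockout. Over all bins of the chromosome 1 stretch they took 12.75% in both libraries. For bins with 1 or 2 midpoints they took 13.7% and 13.9%, and for bins with no midpoint 11.9% and 11.6%. As log2 odds of a gene-dense against a no-midpoint partner, members over no-midpoint bins, this was 0.53 (0.51 to 0.55) in wild-type and 0.70 (0.67 to 0.72) in knockout. The difference of 0.17 (0.13 to 0.20) kept its sign and an interval above 0 under each alternative tried, which included the smaller runs alone (0.57 and 0.75) and mates outside chromosomes 6, 8, X and Y (0.54 and 0.70). Without the bin at 88.2 Mb the odds were 0.56 and 0.73, and gene-dense bins took 15.2% and 15.9% of the mates. Without the members of 74.1 to 75.6 Mb the values were 0.45 and 0.59.

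Across members the share of gene-dense trans partners ran from 11.3% at 88.2 Mb to 19% at 86.5 Mb in wild-type. The latter bin holds *Ptma*, which encodes prothymosin alpha, *Pde6d* and the COP9 signalosome gene *Cops7b*. In knockout the range was 11.2% at 21.3 Mb to 19.5% at 74.5 Mb. The share was higher in knockout in 34 of 44 members, where the background over all bins was 45.1%. The bins of *Cnot9* and *Ptma*, high in cis preference, were high here too, but the bins at 9.9 Mb (14.8%) and 63.1 Mb (14.5%), with cis preferences of 1.07 and 0.96, lay below the wild-type median of members (14.9%).

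By partner chromosome, members over all other bins, chromosome 11 stood out at 1.09 (1.07 to 1.11) in wild-type and 1.12 (1.09 to 1.14) in knockout. Chromosome 4 gave 1.16 and 1.18, but without the bin at 88.2 Mb only 1.02 (1.00 to 1.04) and 1.05 (1.02 to 1.07), while chromosome 11 then gave 1.10 and 1.13. Chromosome 7, which has the most protein-coding genes per Mb of the autosomes analysed as partners (13.9), gave 1.03 in both libraries and 1.04 in both without that bin. Chromosomes 5 (1.03 and 1.06), 9 (1.03 and 1.04) and 17 (1.04 and 1.05) also had intervals above 1 in both libraries. Chromosomes 3 (0.925 and 0.917) and X (0.916 and 0.913) were the lowest apart from Y (0.703 and 0.720, from 224 and 36 pairs of members), and chromosomes 6, 10, 12, 14 and 18 also had intervals below 1 in both libraries. Without the bin at 88.2 Mb chromosome 14 gave 0.978 (0.951 to 1.01) in knockout, which includes 1.

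**Figure D4:**
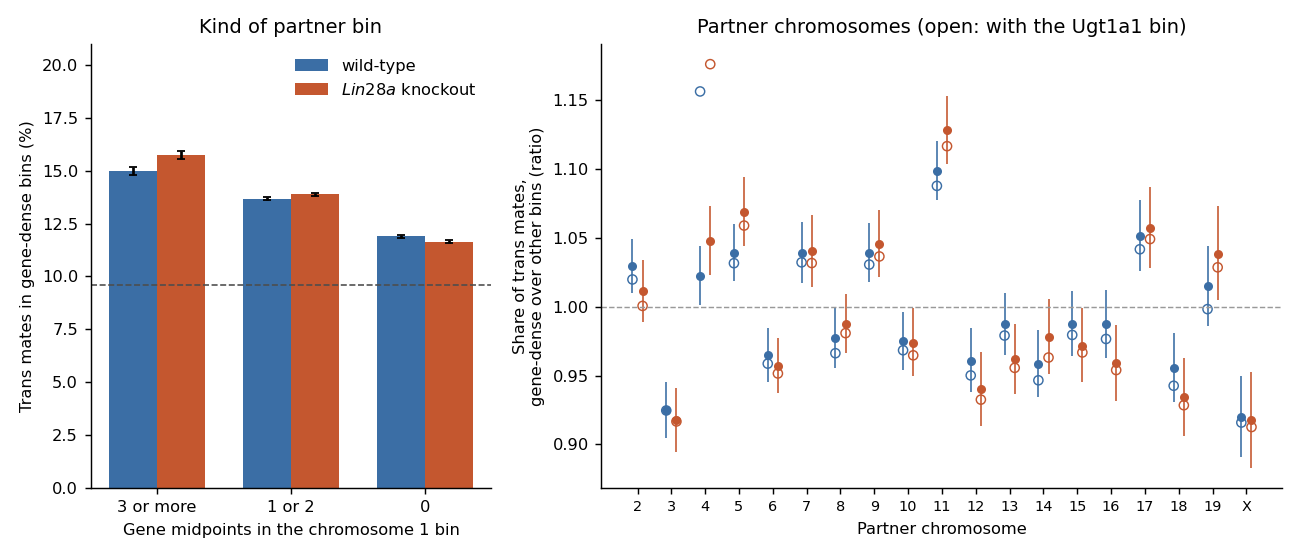
Left, share of trans mates that lie in gene-dense bins of other chromosomes (y axis, %) for chromosome 1 bins with 3 or more, 1 or 2 and 0 midpoints, with exact binomial 95% intervals. The dashed line is the share of such bins among all partner bins, 9.58%, not corrected for coverage. Right, share of each partner chromosome among trans mates of gene-dense over other bins (ratio, Y not drawn); filled points with 95% intervals leave out the bin of *Ugt1a1* and open points include it, which sets chromosome 4 apart at 1.16 and 1.18 only when it is included.

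Members lay where few contacts cross. The insulation score is the log2 of balanced contact across a bin, within 500 kb on either side, over the mean of all bins, so a low score means few crossing contacts. The mean score of members was -0.27 (SD over bins 0.33, n = 44) in wild-type and -0.24 (SD 0.33) in knockout, against -0.13 and -0.12 at bins with 1 or 2 midpoints and 0.02 in both libraries at bins with none. It was below 0 in 35 of 44 members in each library (background 54% and 53.6%). The lowest in wild-type were the bin of *Kdelc1*, *Bivm* and the DNA repair gene *Ercc5* at 44.1 Mb (-1.07 in both libraries), that of *Ndufs1* at 63.1 Mb (-0.84 in wild-type and -0.81 in knockout), that of *Cryga* and *Idh1* at 65.1 Mb (-0.83 and -0.76) and that of *Arid5a* at 36.3 Mb (-0.83 and -0.69). In knockout the bin at 44.1 Mb was also lowest, but its neighbour at 44.0 Mb (-0.81 and -0.93) and the bin of *Inha* at 75.5 Mb (-0.66 and -0.84) came next. The highest were the bin of *Itm2c* at 85.9 Mb in wild-type (0.32) and that of *Atg9a* at 75.1 Mb in knockout (0.31 in wild-type and 0.35 in knockout). Without the bin at 88.2 Mb the mean scores were -0.27 and -0.25. Over bins with 4 or more midpoints they were -0.20 and -0.16, less low than over all members.

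Local minima of the score were called as boundaries. They fell on 7 members in wild-type (background 11.6%) and on 6 in knockout (background 11.3%), or 15.9% and 13.6% of members, a difference from the background of 1 or 2 bins. With RefSeq genes in place of GENCODE the shares were 17.5% and 22.5%, with the knockout library the higher. The 6 knockout boundaries were all shared with wild-type. They were the bins of *Khdc1a* (21.3 Mb), *Prss39* (34.5 Mb), *Arid5a* (36.3 Mb), *Kdelc1* (44.1 Mb), *Cnot9* (74.5 Mb) and *Akp3* (87.1 Mb). Within 1 bin of a boundary lay 21 members in wild-type (background 34.9%) and 19 in knockout (background 33.8%).

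Between the libraries, the mean difference in score at members, knockout minus wild-type, was 0.02 (0.01 to 0.03). Squares of neighbouring members share crossing pairs, which this interval counts as independent, so it is too narrow. With a square of 1 Mb the mean difference was 0.00197 (-0.00789 to 0.0118), which includes 0. Over bins with 4 or more midpoints it was 0.04. Bin by bin, the interval of the difference was above 0 in 12 of 44 members (background 11.2%) and below 0 in 4 (background 8.91%). Scores that differ by 0.2 or more were also counted. Such a fall was seen in 2 of 44 members (background 0.831%) and such a rise in 0 (background 0.238%). The squares of the 2 falling members overlap, as do those of other neighbouring members, so members in these counts are not independent. The bin at 85.9 Mb (chr1:85900001-86000000), with *Itm2c* and the lysophospholipid receptor gene *Gpr55*, went from 0.32 to -0.02, a difference of -0.34 (-0.44 to -0.24) from 1981 and 1255 crossing pairs. The bin at 86.1 Mb, with the proteasome gene *Psmd1* and the serotonin receptor gene *Htr2b*, went from -0.12 to -0.33, a difference of -0.21 (-0.31 to -0.11), and it held a boundary in wild-type only. Both squares reach into or close to a stretch of low coverage with the *Sp100* family, in which bins at 85.3 and 85.4 Mb were left out of both maps. With mapping quality of 30 or more the differences were -0.37 and -0.21. In the smaller runs, with 70 and 61 knockout pairs, they were -0.11 (-0.52 to 0.29) and -0.18 (-0.63 to 0.24).

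The next largest fall was at 75.5 Mb, the bin of *Inha*, which encodes the inhibin alpha subunit, *Stk11ip* and the anion exchanger gene *Slc4a3*. It went from -0.66 to -0.84 (difference -0.17, -0.28 to -0.06), but in the smaller runs the difference was 0.12 (-0.35 to 0.58). The largest rise was at 74.7 Mb, the bin of *Cyp27a1*, which encodes a sterol hydroxylase of bile acid synthesis, *Prkag3* of the AMP-activated kinase, *Wnt6* and *Wnt10a*. It went from -0.33 to -0.15 (difference 0.18, 0.09 to 0.27) and was 0.22 (-0.19 to 0.61) in the smaller runs. The bins of *Akp3*, *Ecel1*, *Prss56* and *Chrnd* at 87.1 Mb and of *Bzw1*, *Clk1*, *Ppil3*, *Nif3l1* and *Orc2* at 58.4 Mb rose by 0.15 (0.06 to 0.23) and 0.14 (0.05 to 0.24), and in the smaller runs the differences were -0.02 (-0.41 to 0.35) and 0.21 (-0.19 to 0.61). All 4 bins lie within the 0.2 used for the count.

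**Figure D5:**
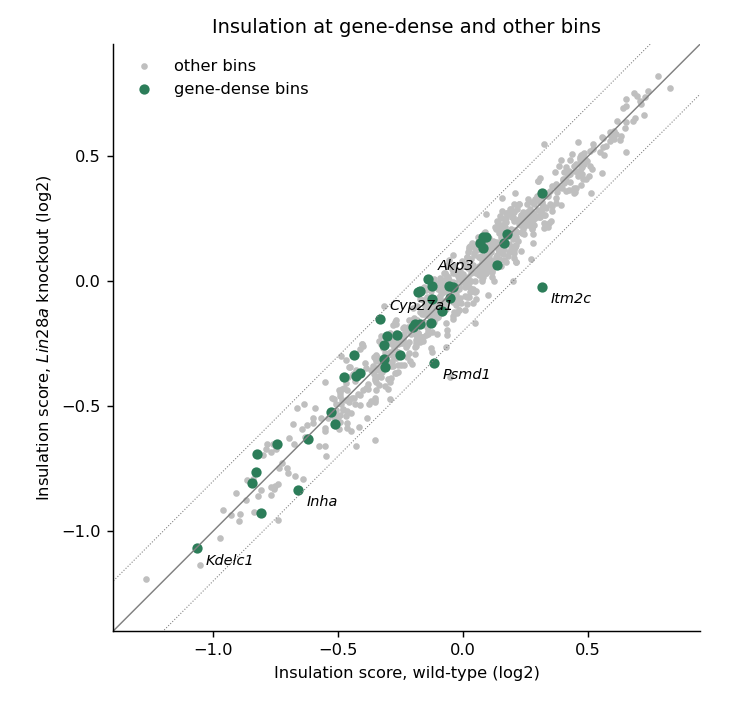
Insulation score in wild-type (x axis) and *Lin28a* knockout (y axis), both log2 over the mean of all bins, for gene-dense bins (green) and all other bins (grey); the solid line is equality and the dotted lines lie 0.2 from it. Gene-dense bins lie mostly below 0 in both libraries, and the bins of *Itm2c* and *Psmd1* are the 2 members outside the dotted lines.

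Genes of broad and of tissue-restricted use, as known from general biology and not from these data, both lay in gene-dense bins. Of all 512 genes, 174 lay in gene-dense bins. Of 25 genes that nearly every cell uses, 17 lay in 9 gene-dense bins, and the preference of these bins was 1.01 to 1.44 in wild-type (median 1.09) and 1.11 to 1.5 in knockout (median 1.33). The other 8 lay in bins with 1 or 2 midpoints, at 0.33 (*Rpl7*) to 1.38 (*Ncl*) in wild-type and 0.27 to 1.47 in knockout. Of 16 genes known for other tissues, 10 lay in 7 gene-dense bins, at 0.74 to 1.16 (median 1.01) and 1.08 to 1.75 (median 1.21). The latter include *Cxcr1* and *Cxcr2*, chemokine receptor genes of neutrophils, *Fev* of serotonin neurons and *Chrnd* and *Chrng* of muscle. The median over all gene-dense bins was 0.81 and 1.00, and 40 and 41 of those 44 bins were above 0, as were all gene-dense bins of both lists. Of the 7 bins, 5 lie in the block of 74.1 to 75.6 Mb. Among the 9 bins of the first list, those at 74.2, 74.5, 75.1 and 75.2 Mb also lie in it. Neither list holds every gene of its kind, so these counts and ranges depend on the choice of genes. The other 6 genes known for other tissues lay in bins with 1 or 2 midpoints, at -0.30 (*Myl1*, a muscle myosin gene) to 1.43 (*Vil1*, of the gut epithelium) in wild-type. In knockout these bins ran from -0.20 to 1.55. A single bin, at 87.2 Mb, held genes of both lists (*Chrng* and the translation gene *Eif4e2*).

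Tandem families, in which neighbouring genes arose by duplication, did not behave alike. Of 6 gamma crystallin genes, 5 lay in the gene-dense bins at 65.0 and 65.1 Mb, with a preference of 0.75 and 0.71 in wild-type and 0.94 and 0.83 in knockout. The sixth, *Crygf*, lies at 65.9 Mb in a bin with 1 midpoint, at -0.41 and -0.85. All 9 *Ugt1a* genes lay in the bins at 88.1 and 88.2 Mb described above, and the 3 *Khdc1* genes, known from the oocyte and early embryo, in that at 21.3 Mb. Of the intestinal alkaline phosphatase genes, only *Akp3* lay in a gene-dense bin (0.74 and 1.08). None of the 6 interleukin 1 receptor family genes, the 3 *Sp100* family genes, the 2 beta defensin genes or the 1 alpha glutathione transferase gene did.

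Ends at members were also composed differently. Pairs under 20 kb made up 13.5% (13.4 to 13.6) of cis ends in wild-type and 12.3% (12.2 to 12.5) in knockout. At bins with 1 or 2 midpoints they made up 12.9% and 11.7%, and at bins with no midpoint 12.6% and 11.4%. Among cis ends of 20 kb or more at members, 19% and 15.8% joined positions at least 30 Mb apart. That share was 17.7% and 14.4% at bins with 1 or 2 midpoints and 16.1% and 12.7% at bins with none. Without the bin of *Ugt1a1*, the share at members was 18.5% in wild-type and 15.3% in knockout. The gap from bins with 1 or 2 midpoints was then smaller. The shares of short and of far pairs were both lower in the knockout library in each class of bins. Both were higher at members than elsewhere in each library, with or without that bin. The difference in short pairs at members, -1.13 percentage points (-1.29 to -0.969), was -0.30 (-0.988 to 0.386) in the smaller runs.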

How the data were processed

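Per the labels, nuclei of formaldehyde cross-linked cells were used for Hi-C, and ligation junctions were captured on streptavidin beads and sequenced as paired ends. The submitters' processing notes name CASAVA 1.8, Bowtie2, HiC-Pro and the build mm10; the study's methods do not describe this assay, and the enzyme is not given in the sources used here. The deposited lists hold 1 pair per line, and the mapping quality score of each end as deposited ran from 11 to 42. The distance to restriction sites in the deposited lists ran from 100 to 600 bp, and the number of pairs that repeat another pair was 0. Fragment numbers of 1151 of 1154 first ends matched GATC sites of GRCm38 within 1 (99.7%). The lists analysed here are partial and sorted by first end, and the stretch from 3 to 90.75 Mb of chromosome 1 is complete in both, with bins ending at 90.7 Mb.

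Cis pairs of 20 kb or more were counted in 100 kb bins, and maps were balanced by iterative correction leaving out bins with under 20% of the median total (9 and 8 bins, no member). Expected counts were mean balanced contacts by separation times the biases of both bins. Boundaries were minima with a prominence of 0.1 or more on maps thinned to 1972539 pairs. Counts have exact Poisson intervals, shares exact binomial (Clopper-Pearson) intervals, ratios intervals from the exact binomial split and odds log-normal intervals, all at 95%. Reads carry no molecular identifiers. As each group is 1 library, intervals cover counting error only. On simulated maps the contrast among members was compared with what the same steps give without noise. That comparison covers noise and not whether a planted contrast is recovered. Boundary calls on such maps had no set limit for passing. Python 3.11.15 with numpy 2.4.6, pandas 2.3.3, scipy 1.17.1 and matplotlib 3.10.9 was used. In all, 16 planned and 4 added alternatives were run.

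The members, the gene lists and the tests were chosen with earlier results of these data known. Named genes are those of the 5 bins with the most midpoints, up to 4 of the first genes in the fullest bin of the longest 3 runs, those of the 3 bins with the largest rise and the 3 with the largest fall in insulation, and listed genes; other bins were named after their values were seen. Pairs with unplaced contigs or mitochondrial DNA entered no share.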

Additional observations from a re-analysis of the deposited data

How the results depend on the processing

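With 1 library per group there was no replicate to leave out, and a difference between libraries cannot be told apart from one between cultures, clones or library preparations. Of the alternatives, 4 were chosen after seeing the data (the smaller sequencing runs alone, members without 74.1 to 75.6 Mb, members without 88.2 Mb, and short cis pairs left out of the trans denominator). No paired analysis was possible because each group has 1 library and the runs are not matched to replicates. Depth limits single bins most, as a member shared 92 to 290 wild-type and 67 to 274 knockout pairs with other members at 2 Mb or more.

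The log2 ratio of contacts among gene-dense bins turned to -0.0456 (-0.35 to 0.25) in the smaller runs. With 2 or more midpoints the log2 ratio with no-midpoint bins was -0.0246 and the difference in trans share 0.0403 percentage points. With 4 or more midpoints the trans difference was 0.19 percentage points and that in insulation 0.0432. Without chromosomes 6, 8, X and Y the trans difference was -0.35, and without cis pairs under 20 kb in its denominator 0.12. In the smaller runs the difference in short cis pairs was -0.30 percentage points (-0.988 to 0.386) and that in insulation 0.0729. The insulation difference was 0.0356 with RefSeq genes and 0.00197 (-0.00789 to 0.0118) with a square of 1 Mb. Boundary frequency was 47.7% and 43.2% when a boundary within 1 bin counted, and 22.5% in knockout with RefSeq genes. The log2 ratio within runs was 0.0157 with no gap allowed, against 0.11 as reported. Contacts between runs gave no value there, as only 1 run was left. The cause of these shifts was not tested. All other settings tried left each difference between the libraries within its interval, and each count within 1.5 times, but some intervals came to include 0. These were the log2 ratio of contacts among gene-dense bins with 4 or more midpoints, 0.135 (-0.0143 to 0.284), and without 74.1 to 75.6 Mb, 0.0546 (-0.0346 to 0.144), and that within runs with the expected number from separation alone, 0.0537 (-0.00586 to 0.113). In the smaller runs so did the log2 ratio with no-midpoint bins, -0.0363 (-0.113 to 0.04), and the trans difference, 0.34 percentage points (-0.438 to 1.12). Levels moved more. With the expected number from separation alone, contacts among gene-dense bins were 1.79 and 1.90 (1.44 and 1.56 as reported), and those within and between runs 1.51 and 1.57 and 1.41 and 1.41 (1.15 and 1.23, and 1.10 and 1.13, as reported).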
